A study of Mus musculus with 4 samples.

Results

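Open chromatin at the nuclear genes of oxidative phosphorylation was described in 4 muscles of the mouse. The genes were those of the 5 respiratory complexes and cytochrome c, taken by name from the deposited peak lists. A peak was a member when the gene named beside it began with Ndufa, Ndufb, Ndufc, Ndufs, Ndufv, Uqcr, Atp5 or Cox4 to Cox8, or was Sdha, Sdhb, Sdhc, Sdhd, Cyc1 or Cycs. In all, 486 of 120839 peaks were members, 128 of 30136 in the extensor digitorum longus (EDL), 142 of 40337 in the quadriceps (Quad), 116 of 28784 in the soleus (Sol) and 100 of 21582 in the diaphragm (Dia). Peaks of different lists that overlapped by at least 1 bp formed 53883 regions, of which 185 held a member peak. The member peaks named 88 genes, and a further 9 protein-coding genes of the reference fit the rule but were named by no peak, so counts per gene below are out of 97. These comprised 39 complex I subunit genes, 8 complex I assembly factors (Ndufaf), 4 genes of complex II, 9 of complex III, 17 of complex IV and 15 of complex V. The other 5 were Cycs, Ndufa4, Ndufa4l2, Cox7a2l and Atp5s. Ndufa4 was first counted with complex I and is now placed with complex IV, so it was kept apart with its paralogue Ndufa4l2.

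The animals were sedentary wild-type mice, C57BL/6 in the labels and male C57BL/6J in the study's methods, and accessible DNA was mapped by ATAC-seq on powdered frozen tissue, where a transposase cuts open chromatin and tags the ends for sequencing. Values for the 4 muscles are given in the order EDL, Quad, Sol and Dia unless stated otherwise. EDL and Quad are mostly fast and glycolytic, Sol is slow and oxidative, and Dia is a trunk muscle that works without pause. Each muscle was represented by 1 library, which the labels call pooled, so the differences between muscles given here have no replicate check and no p-value, and the intervals cover counting error only. The score of a peak is its tag count scaled to library size, and the percentile gives its rank by score within its own list, 100 being the highest. A promoter peak is one that the deposited annotation calls promoter-TSS, within 1 kb upstream and 100 bp downstream of a transcription start site (TSS). In whole muscle, a weaker peak could come from fewer open nuclei of a kind or from less open chromatin in each, which cannot be told apart.

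The steps between the scores gave an inferred depth of 104 M, 78.1 M, 104.6 M and 99.3 M tags, if the scores were scaled to 10 M tags as the peak caller does by default. Of 10 muscle marker genes checked against the tissue labels, 7, 8, 9 and 6 were named by a peak. Ckm, Acta1, Mb, Ryr1, Ttn and Des were named in all 4 lists, and Tnnc1 in none. Myh4, of glycolytic fibres, was named in EDL, Quad and Sol, and Tnnt3 in Quad and Sol. Myh7, of oxidative fibres, was named in Sol alone.

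Oxidative phosphorylation passes electrons from NADH through complex I, or from succinate through complex II, to complex III, cytochrome c and complex IV, and the proton gradient built on the way drives the ATP synthase, complex V. Most subunits are encoded in the nucleus, and only these are described here. Their promoters are known for binding sites of the nuclear respiratory factor NRF1, of ETS factors such as GABPA, of YY1 and of the oestrogen-related receptors (ERR), partners of the coactivator PGC1α in muscle. Several complex IV subunits come as isoform pairs, of which Cox6a2, Cox7a1 and Cox8b are the forms of heart and skeletal muscle.

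The sequences below show DNA at the promoter peaks, most of it inside a peak. The first set holds upstream bases of members whose window held the letters of NRF1 (GCGCATGC) or of a nuclear receptor monomer site (AAGGTCA), letters that member promoters held more often than all promoters. Each is printed 5′ to 3′ along the gene and ends at the base before a RefSeq start, in GRCm38.p6, and capitals mark every match of the motifs searched, on either strand.
Cox6a1 (chr5:115348959-115349118, minus strand): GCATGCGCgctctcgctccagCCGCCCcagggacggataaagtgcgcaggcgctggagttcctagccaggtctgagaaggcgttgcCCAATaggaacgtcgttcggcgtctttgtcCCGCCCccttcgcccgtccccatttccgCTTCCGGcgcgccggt
Atp5g2 (chr15:102671048-102671207, minus strand): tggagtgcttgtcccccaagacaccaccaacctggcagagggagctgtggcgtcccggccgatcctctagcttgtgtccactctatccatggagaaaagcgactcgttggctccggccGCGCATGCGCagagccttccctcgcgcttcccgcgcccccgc
Ndufa6 (chr15:82354292-82354451, minus strand): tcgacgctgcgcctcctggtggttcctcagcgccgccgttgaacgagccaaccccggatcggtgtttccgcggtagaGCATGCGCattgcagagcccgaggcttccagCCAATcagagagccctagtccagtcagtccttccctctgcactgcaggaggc
Sdhb (chr4:140961111-140961270, plus strand): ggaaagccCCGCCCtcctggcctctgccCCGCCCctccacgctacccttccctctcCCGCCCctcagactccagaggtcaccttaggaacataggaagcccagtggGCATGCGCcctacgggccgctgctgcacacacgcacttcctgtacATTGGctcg
Ndufb4 (chr16:37654369-37654528, minus strand): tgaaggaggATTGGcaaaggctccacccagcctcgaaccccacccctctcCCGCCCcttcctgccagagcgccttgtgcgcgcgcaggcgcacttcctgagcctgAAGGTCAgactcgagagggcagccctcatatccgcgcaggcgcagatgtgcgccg

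In Cox6a1, Ndufa6 and Sdhb the NRF1 letters were read on the opposite strand, as GCATGCGC. In Atp5g2, whose product forms part of the rotating ring of complex V, the 2 readings overlapped in a palindrome. The second set holds the upstream bases of complex IV isoforms, because Cox8b was listed in EDL and Quad alone, and those of Cox8a, the form of other tissues, and of the muscle isoform Cox7a1 are shown beside it.
Cox7a1 (chr7:30184011-30184170, plus strand): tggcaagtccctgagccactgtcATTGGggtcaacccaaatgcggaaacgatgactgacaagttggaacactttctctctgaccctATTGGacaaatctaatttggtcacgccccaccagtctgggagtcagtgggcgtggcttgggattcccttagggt
Cox8a (chr19:7217617-7217776, minus strand): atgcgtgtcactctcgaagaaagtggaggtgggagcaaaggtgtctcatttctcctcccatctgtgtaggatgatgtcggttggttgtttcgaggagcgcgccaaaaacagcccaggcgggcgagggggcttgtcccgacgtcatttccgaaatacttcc
Cox8b (chr7:140900447-140900606, minus strand): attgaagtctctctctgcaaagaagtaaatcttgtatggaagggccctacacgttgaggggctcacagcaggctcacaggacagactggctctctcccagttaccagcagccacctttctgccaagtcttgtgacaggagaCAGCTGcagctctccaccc

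None of the motif letters lay in the Cox8a stretch, and the only match in the Cox8b stretch was the E-box CAGCTG. The Cox8a promoter region held the NFY letters CCAAT outside the stretch shown. The third set holds the 2 members whose promoter peak held the ERR letters TCAAGGTCA, and 4 of those that held the YY1 letters AAGATGGC, with 9 bases on either side and the motif in capitals, along the gene's strand.
Atp5g3 (chr2:73911361-73911387, minus strand): gttacaaagTGACCTTGAgcgtcttcc
Sdhd (chr9:50603796-50603822, minus strand): gttgtagagTGACCTTGAgccctcgaa
Ndufa3 (chr7:3617386-3617411, plus strand): gccaagaacAAGATGGCcgggagtaa
Atp5j2 (chr5:145191502-145191527, minus strand): caggacttcAAGATGGCgtcactcgg
Ndufb8 (chr19:44555388-44555413, minus strand): gagaaggtgAAGATGGCtgccgcccg
Ndufs7 (chr10:80249464-80249489, plus strand): gccgaggccAAGATGGCggcgctggc

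The promoters of most oxidative phosphorylation genes were open in every muscle. A promoter peak carried the gene's name for 74 of 97 genes in EDL (76.3%, 95% Wilson interval 66.9% to 83.6%), 71 in Quad (73.2%), 72 in Sol (74.2%) and 72 in Dia (74.2%). Of all 21774 protein-coding genes of the reference, the shares with such a peak were 38.8%, 42.5%, 38.6% and 38.0%. Across the lists, 61 of the 97 genes had a named promoter peak in all 4 muscles and 81 in at least 1. The number of genes differed by at most 3 between muscles, although the Quad list held 40337 peaks and the Dia list 21582.

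Because the lists name only the nearest gene, a promoter shared with a neighbour can be counted for the neighbour. When any peak over the window of a gene's start was counted, whichever gene it named, 85 of 97 members had a peak in EDL (87.6%, interval 79.6% to 92.8%), and 85, 84 and 86 had one in the other muscles. The share of all protein-coding genes was then 45.1%, 48.9%, 45.1% and 44.6%. All 4 lists had such a peak for 80 members, and 88 had one in at least 1 list.

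This step changed what could be said of most members whose name came and went between lists. Of the 20 genes with a named promoter peak in some but not all lists, 13 had a peak over their start in all 4. Ndufaf8, an assembly factor of complex I, is an example: its start lay under a peak at percentile 99.3, 99.3, 99.5 and 99.7, but the peak was named for the neighbour Tepsin in Quad and Dia. Ndufa11 was named by a promoter peak in Quad alone, at percentile 71.9, but a stronger peak named for Vmac lay over its start in all lists, at percentiles 95.6, 94.4, 93.7 and 95.4. Ndufaf2 lost its name to Ercc8 and Ndufaf7 to Cebpz in Quad, Sol and Dia. Ndufb5 lost its name to Mrpl47 in Sol, and Atp5c1 to Kin in Dia. The same held for Atp5s, Ndufa4, Ndufa8, Ndufaf5, Ndufs3, Uqcrb and Ndufc2, the last by annotation, as its Quad peak was called 5′ UTR.

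A neighbour on the opposite strand was frequent among the members. Another protein-coding gene started on the opposite strand within 1 kb for 32 of 96 members with a curated start (33.3%) and for 2061 of 21000 protein-coding genes (9.81%). Among the 20 members named in some lists only, 14 had such a neighbour, against 12 of the 61 named in all.

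Of the 16 members that no promoter peak named, 6 had a peak over their start in all 4 muscles. Cycs, which encodes somatic cytochrome c, lay under a peak named 5430402O13Rik at percentile 96.9, 96.7, 93.6 and 95.3. Uqcr10, a small subunit of complex III, lay under the peak of Zmat5 at percentiles 92.6, 89.6, 85.1 and 81.2 in the same order. The peaks over Atp5pb, Ndufb1, Ndufb3 and Ndufb9 were named for their neighbours in each list, those of Ndufb1 for Cpsf2 and those of Ndufb9 for Tatdn1. The start of Atp5a1, the catalytic-core alpha subunit of the ATP synthase, lay under a peak named Haus1 in EDL, Sol and Dia, and no peak was called there in Quad.

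**Figure D1:**
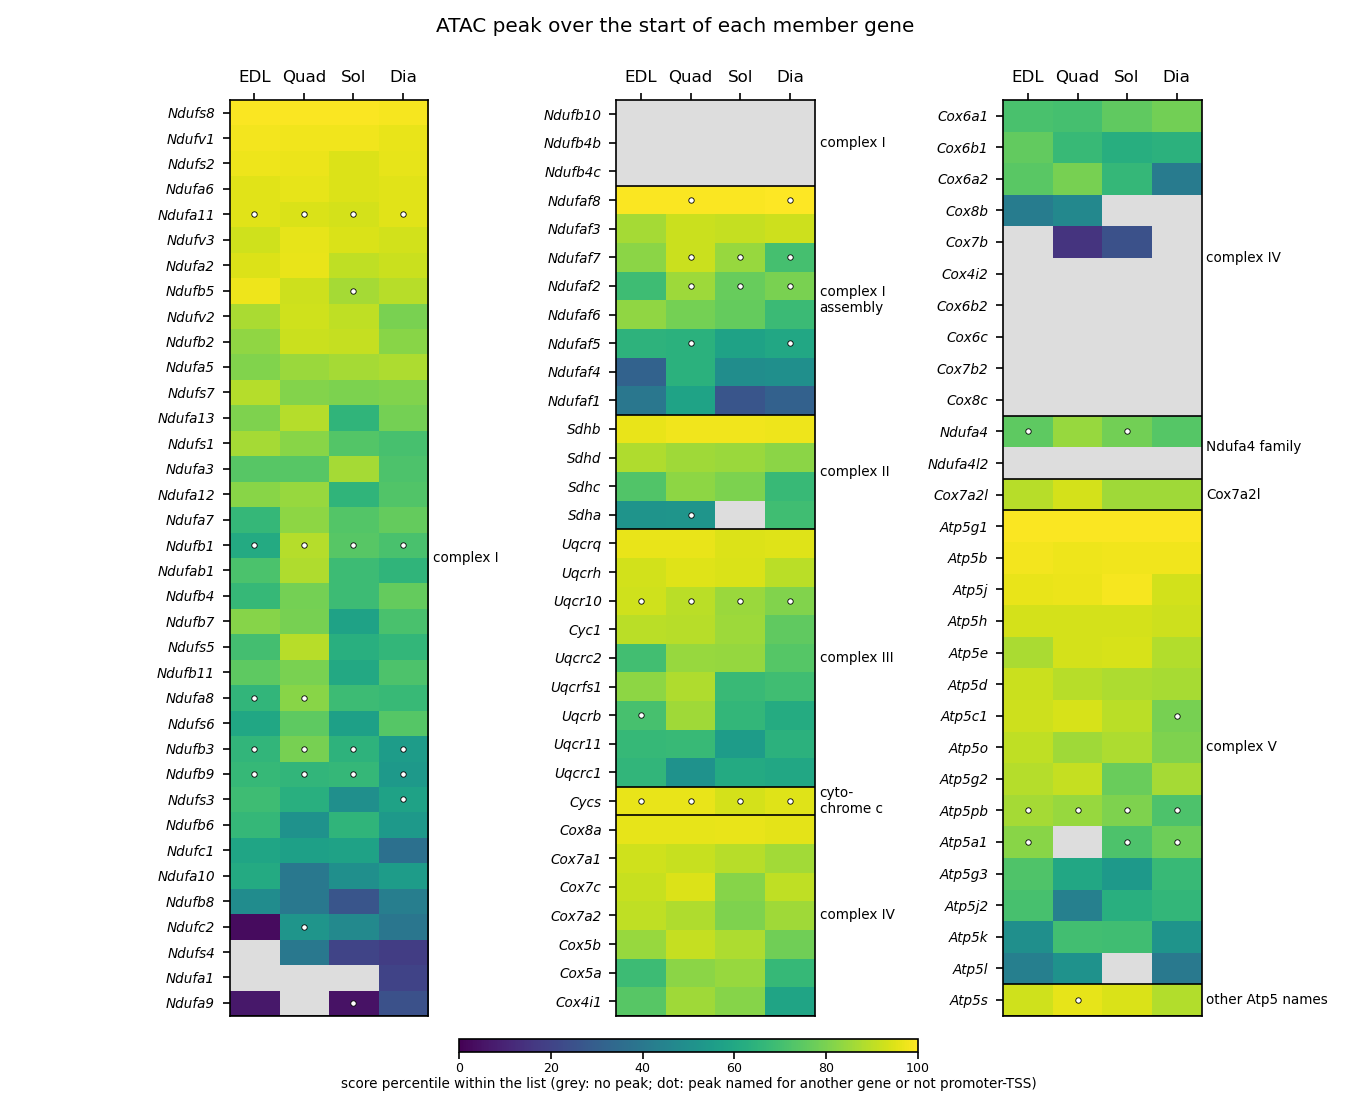
Score percentile of the best peak over the start window of each of the 97 member genes, in columns for EDL, Quad, Sol and Dia and in rows ordered by complex and by mean percentile; grey cells had no peak over the start, and dots mark cells where the peak named another gene or was not called promoter-TSS. Most rows are filled in all 4 columns, the highest percentiles are those of Atp5g1, Ndufs8 and Ndufaf8, and grey cells gather among the complex IV genes.

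No peak lay over the start of 9 members in any list. These were Cox4i2, Cox6b2, Cox6c, Cox7b2, Cox8c, Ndufa4l2, Ndufb10, Ndufb4b and Ndufb4c, the last 2 being copies of Ndufb4. Cox6b2, Cox7b2 and Cox8c are testis forms, and the nearest peak to Cox7b2 was at least 568 kb away in each list. Cox6c and Ndufb10 are ordinary subunits of complexes IV and I. The nearest peak to a Ndufb10 start was 3.41 kb away in EDL, 3.38 kb in Quad, 3.38 kb in Sol and 4.39 kb in Dia, named for Rpl3l or Rps2. For Cox6c, Dia had a peak in the first intron, 431 bp downstream of the start at percentile 14.96, and the nearest peak in EDL was 10.7 kb away.

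Among the genes with a promoter peak, the complexes differed in rank. Complex V stood highest: the median percentile of its named promoter peaks was 90.6 over 13 genes in EDL, 91.3 over 13 in Quad, 88.7 over 12 in Sol and 86.6 over 12 in Dia. Complex I, the NADH dehydrogenase, had medians of 80.7, 82.9, 68.6 and 73.0 over 29, 29, 29 and 31 genes. Complex IV had medians of 75.8, 84.2, 81.6 and 78.6 over 11, 12, 11 and 10 genes. The medians of complex III were 83.0, 86.8, 76.0 and 71.4, and those of complex II, of 3 or 4 genes, were 80.4, 85.9, 82.7 and 76.0. Single genes ranged widely around these medians, from percentile 2.97 to 99.4 for complex I and from 43.2 to 99.5 for complex V in EDL. By any peak over a start, complex V remained highest, at 88.8, 90.3, 87.8 and 80.8, but the order of the other complexes changed. Complex I then had medians of 74.7, 82.5, 68.6 and 71.9, and complex III 83.0, 88.0, 84.0 and 73.5. Complex II had 80.4, 84.4, 85.1 and 76.0, and the medians of complex IV were unchanged.

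**Figure D2:**
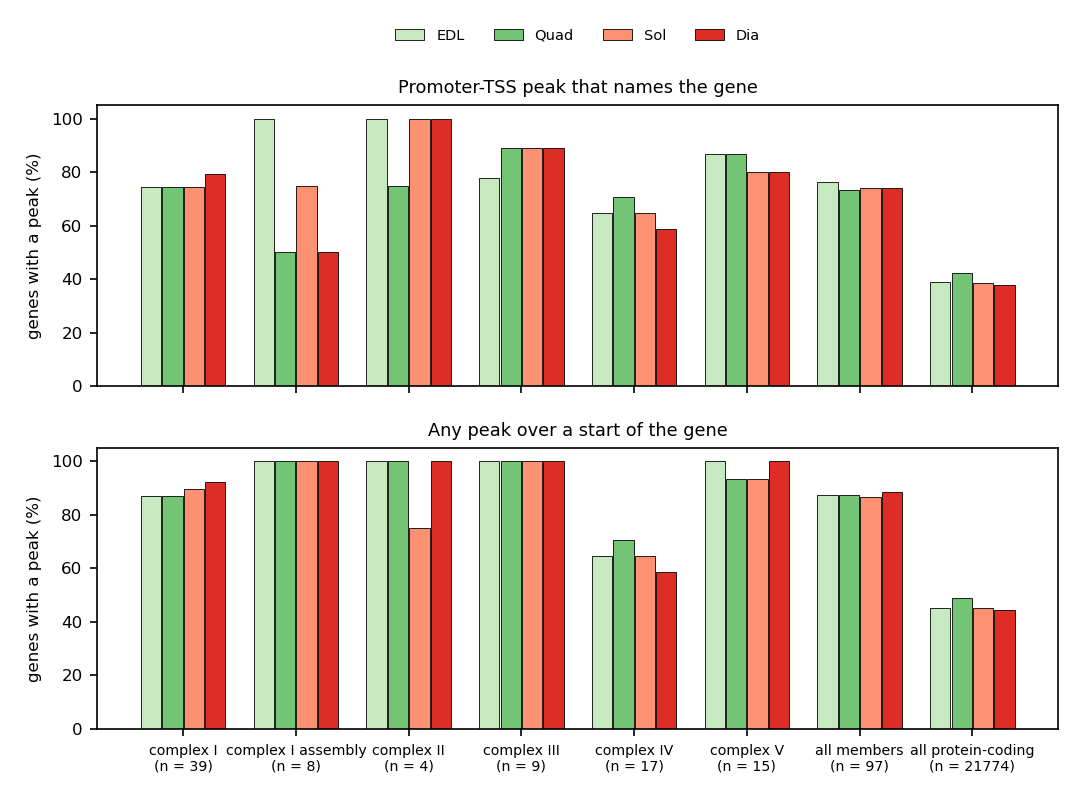
Share of genes with a peak, in percent, by complex and muscle; the upper panel counts promoter-TSS peaks that name the gene and the lower panel any peak over a start, with all protein-coding genes at the right and the number of genes under each set. The lower panel reaches 100% for complex III and for the complex I assembly factors in all 4 muscles. Complex IV stays at 58.8% to 70.6%, and its 17 genes include Cox6b2, Cox7b2 and Cox8c, testis forms without a start peak.

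Over all members, the median percentile of the best promoter peak was 82.4, 85.6, 80.3 and 74.5. Promoter peaks as a class rank high: the median over all promoter peaks of a list was 76.3, 81.3, 75.7 and 74.1. Counted by peak, the medians of the member promoter peaks were 82.1, 85.2, 80.3 and 75.5. Of the member peaks, the shares that were promoter peaks were 58.6% (interval 49.9% to 66.8%), 52.1%, 62.9% and 73.0% (63.6% to 80.7%). The shares among all peaks were 30.7%, 25.5%, 31.9% and 41.3%.

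The 5 members with the highest mean percentile among the 61 named in all lists came from 3 complexes. Atp5g1, a gene of the proton-conducting c ring of the ATP synthase, had scores of 31.9, 31.9, 29.7 and 28.9. Ndufs8, an iron-sulphur subunit of complex I, had scores of 30.8, 31.5, 30.2 and 27.0. Both were at percentile 98.8 or higher in every list. Atp5b, the catalytic beta subunit of the ATP synthase, had scores of 26.6, 24.2, 24.3 and 24.3. Ndufv1, the subunit that binds NADH, and Sdhb, the iron-sulphur subunit of complex II, followed with scores of 22.3 to 25.5 over the lists.

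The 5 lowest of the 61 were all from complex I or its assembly, which supplied 25 and 4 of the 61. Ndufaf1 had scores of 6.06, 7.43, 5.26 and 5.94, and Ndufb8 had 6.83, 5.76, 5.26 and 6.85. Ndufaf4, Ndufa10 and Ndufc1 had mean percentiles of 48.5, 51.5 and 52.5. Among complex I subunits named in all 4 lists, mean percentiles ran from 39.5 for Ndufb8 to 99.2 for Ndufs8.

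Other nuclear genes of the mitochondrion were set beside the members by both counts. Of 78 genes of the mitochondrial ribosome (Mrpl and Mrps), the shares with a peak over a start were 91.0%, 88.5%, 85.9% and 84.6%. Of 39 assembly and accessory genes of the complexes outside the rule, such as Surf1, Sco1 and Bcs1l, the shares were 94.9%, 89.7%, 94.9% and 92.3%. These stood near the members' shares of 87.6%, 87.6%, 86.6% and 88.7%. By a promoter peak that carried the gene's name the shares were lower than the members', at 55.1%, 59.0%, 64.1% and 56.4% for the ribosome genes and 69.2%, 71.8%, 59.0% and 71.8% for the assembly genes. The median percentiles of the start peaks were 72.4, 76.4, 67.9 and 69.6 for the ribosome genes, 81.4, 90.8, 83.4 and 79.1 for the assembly genes, and 82.1, 85.6, 80.3 and 74.5 for the members.

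Complex IV has muscle and general isoforms, and most of both kinds were open in all 4 muscles. Cox8b, the muscle form of subunit 8, had a promoter peak of score 6.25 (65 inferred tags, percentile 42.1) in EDL and 6.28 (49 tags, percentile 46.5) in Quad, and none in Sol or Dia. Its partner Cox8a had scores of 21.6, 21.9, 22.1 and 21.5, all at percentile 96.0 or higher, and Cox8c had no peak.

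Cox6a2, the muscle form of subunit 6a, was open in all 4 muscles, with scores of 10.3, 11.1, 9.18 and 6.75. Dia stood lowest, at percentile 41.7, while the others lay between 66.7 and 79.4. Cox6a1 ran the other way, with 9.72, 9.22, 10.7 and 12.1. Cox7a1, the muscle form of subunit 7a, had scores of 17.3, 16.4, 14.9 and 14.5, and Cox7a2 had 15.6, 14.3, 11.9 and 14.3. Cox4i1 had scores of 10.2, 13.3, 12.2 and 8.46, whereas Cox4i2 had no promoter peak. Cox6b1 was open in each muscle at scores of 8.60 to 10.6, and its partner Cox6b2 in none.

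Cox7b, on the X chromosome, had a weak promoter peak in Quad (score 4.35, 34 tags) and Sol (5.16, 54 tags) and none in EDL or Dia. Ndufa4 lay under a peak in all lists at percentiles 75.4, 84.7, 78.8 and 73.5, and Ndufa4l2, a paralogue induced by low oxygen, had no peak over its start. The 3 genes of the ATP synthase c subunit, which encode the same mature protein, were open in every muscle but ranked apart, with mean percentiles of 99.4 for Atp5g1, 85.9 for Atp5g2 and 63.4 for Atp5g3.

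Besides Cox8b and Cox7b, 6 members had a peak over their start in some lists only. Ndufa1 had one in Dia alone (score 5.24, 52 tags). Ndufs4, a complex I subunit on chromosome 13, had promoter peaks of score 5.76 in Quad, 4.87 in Sol and 5.14 in Dia, and in EDL a peak in the first intron 208 bp from the start. Ndufa9 had start peaks of score 4.04 in EDL, 3.92 in Sol and 5.54 in Dia. Atp5l had 6.35 in EDL, 6.66 in Quad and 6.65 in Dia, and none in Sol. Sdha, the flavoprotein of complex II, had start peaks of score 7.12 in EDL, 6.79 in Quad and 10.1 in Dia, and its Sol promoter peak of score 7.74 was centred 231 bp downstream, outside the window. Atp5a1 lacked a start peak in Quad, as given above. Apart from Sdha in Dia and Atp5a1, these scores lay between 3.92 and 7.74, and the median score of a list was 6.93, 6.53, 7.17 and 7.45. Whether a missing peak reflects the calling threshold was not tested.

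Promoter scores of the members were then compared between the oxidative and the glycolytic muscles, gene by gene, in 4 contrasts that share their libraries. The ratio of scores was taken for genes named by a promoter peak in both lists, and the median over all such genes was subtracted on the log2 scale. That median was −0.19 for Sol over Quad, −0.20 for Dia over Quad, 0.00 for Sol over EDL and −0.01 for Dia over EDL. The values below are therefore relative to other promoters of the same pair. The peaks compared for a gene were its best in each list and need not overlap. They did not for Atp5d in both Sol contrasts, Ndufs7 in Sol over EDL, Atp5l in Dia over Quad and Ndufaf4 in Dia over EDL.

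Relative to other promoters, the members' scores moved little as a set in these contrasts, up or down. The median centred log2 ratio was 0.07 for Sol over Quad (66 genes, 41 above 0), −0.11 for Sol over EDL (68 genes, 27 above 0), 0.05 for Dia over Quad (66 genes, 39 above 0) and −0.02 for Dia over EDL (67 genes, 29 above 0). By complex, complex V had medians of 0.18 in Sol over Quad and 0.14 in Dia over Quad, and of −0.14 and −0.01 against EDL. Complex I had −0.02, −0.05, 0.10 and 0.00 for Sol over Quad, Sol over EDL, Dia over Quad and Dia over EDL, and complex IV had 0.07, −0.07, −0.02 and −0.11.

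**Figure D3:**
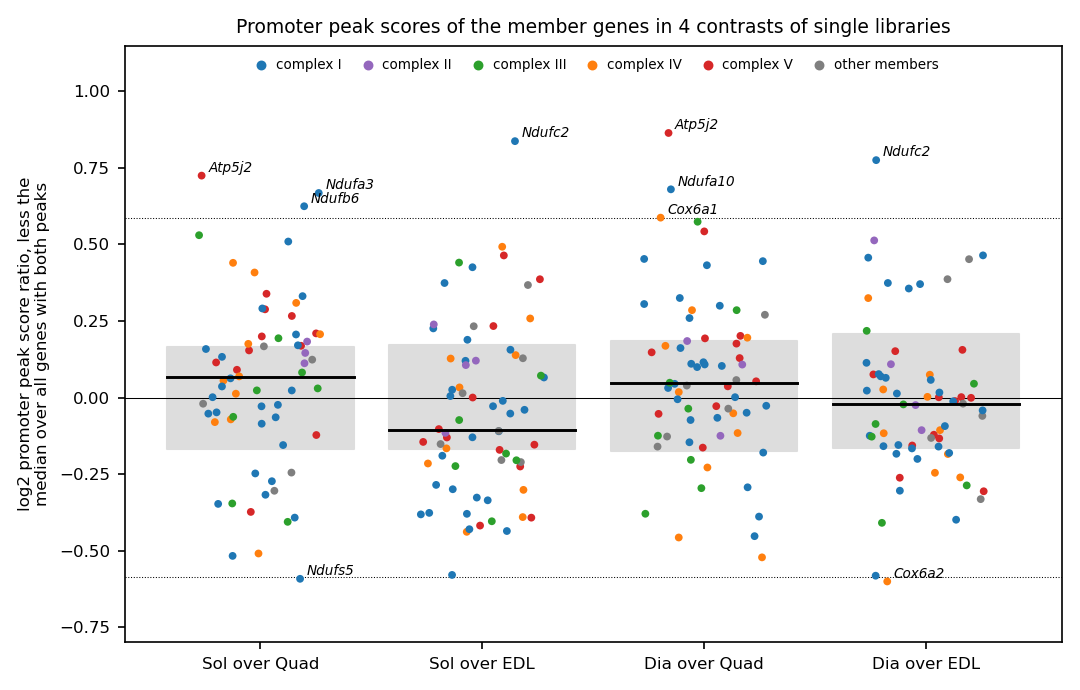
Centred log2 ratio of promoter peak scores for each member gene (points, coloured by complex) in 4 contrasts of 1 library against 1; black bars are the member medians, grey bands the quartiles of all genes with a promoter peak in both lists, and dotted lines 1.5-fold. The black bars stand at 0.07, −0.11, 0.05 and −0.02 for Sol over Quad, Sol over EDL, Dia over Quad and Dia over EDL, and the named genes are those past 1.5-fold.

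Few members passed 1.5-fold. In Sol over Quad, 3 of 66 were at least 1.5-fold higher in Sol (4.55%), beside 2.46% of all 8146 genes compared, and 1 was higher in Quad (1.52%), beside 1.83% of all. Atp5j2, a membrane subunit of the ATP synthase, had scores of 8.70 in Sol and 6.02 in Quad, 1.65-fold higher in Sol after centring, as are all folds below (counting interval 1.1499 to 2.40). Ndufa3 had 13.7 in Sol and 9.86 in Quad, 1.59-fold (1.19 to 2.12), and Ndufb6 had 8.98 and 6.66, 1.54-fold (1.09 to 2.21). Ndufs5 had 8.70 in Sol and 15 in Quad, 1.51-fold higher in Quad (1.14 to 2.003).

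In Sol over EDL, 1 of 68 members was higher in Sol (1.47%), beside 2.22% of all 7898 genes, and none was higher in EDL, beside 1.70%. It was Ndufc2, with 6.88 in Sol and 3.85 in EDL, 1.79-fold (1.20 to 2.70). The EDL peak held 40 tags, close to the 34 of the lowest peak of that list. Ndufb7 fell just short in the other direction, 1.49-fold higher in EDL.

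In Dia over Quad, 3 of 66 members were higher in Dia (4.55%), beside 3.54% of all 7899 genes, and none was higher in Quad, beside 1.90%. Atp5j2 had 9.57 in Dia against the same 6.02 in Quad, 1.82-fold (1.27 to 2.64). Ndufa10 had 8.06 and 5.76, 1.60-fold (1.10 to 2.36), and Cox6a1 had 12.1 and 9.22, 1.503-fold (1.11 to 2.04). In EDL the score of Atp5j2 was 9.62, so the low value was that of Quad.

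In Dia over EDL, 1 of 67 members was higher in Dia (1.49%), beside 3.76% of all 7689 genes, and 1 was higher in EDL (1.49%), beside 1.99%. Ndufc2 had 6.55 in Dia and again 3.85 in EDL, 1.71-fold (1.14 to 2.61). Cox6a2 had 6.75 in Dia and 10.3 in EDL, 1.52-fold higher in EDL (1.11 to 2.09), and Ndufb5, at 16.0 in Dia and 24.1 in EDL, fell just short of the limit.

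The contrasts with Quad depended most on the centring. Without it, no member was 1.5-fold higher in Sol than in Quad, beside 0.749% of all genes, and 5 were higher in Quad (Cox7c, Ndufa13, Ndufab1, Ndufs5 and Uqcrfs1), beside 6.95%. For Dia over Quad, 1 member was higher in Dia (Atp5j2), beside 1.11% of all, and 3 were higher in Quad (Cox4i1, Cox6a2 and Ndufs5), beside 7.39%. The member medians of these contrasts were then −0.13 and −0.15, and 17 and 16 of 66 genes were above 0. For Dia over EDL, 1 member was higher in Dia (Ndufc2), beside 3.62% of all, and 2 were higher in EDL, beside 2.07%, as Ndufb5 then passed the limit with Cox6a2.

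In each list, a minority of the named members had peaks away from their promoters. A peak outside promoters named 29 of the 82 member genes in the EDL list (35.4%, interval 25.9% to 46.2%), 30 of 80 in Quad (37.5%), 29 of 83 in Sol (34.9%) and 19 of 79 in Dia (24.1%, 16.0% to 34.5%). For all protein-coding genes named in a list the shares were 61.9%, 68.7%, 61.1% and 52.7%. A gene named only by a peak outside promoters always counts here. In EDL, 74 of the 82 named members had a named promoter peak, beside 8439 of 12230 genes, so part of the gap comes from how genes entered the lists. Merged over the lists, 104 such regions named 38 members. Only 14 lay in the member itself, 45 in another gene and 45 between genes, and the median distance from the nearest start was 20685 bp, so the name records proximity and no link to the gene was tested.

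The 3 highest of these regions were listed in all muscles. A region in the second intron of Bcl2l1, 31464 bp downstream of Cox4i2 (chr2:152785534-152785891), ranked at percentile 91.7, 92.0, 97.0 and 83.3. A region at the end of Mrpl58, 6465 bp from Atp5h (chr11:115413273-115413557), ranked at 90.9, 86.5, 92.8 and 76.0. A region in an intron of Ube4a, 21249 bp upstream of Atp5l, ranked at 88.4, 88.0, 86.7 and 63.5. A region 1927 bp upstream of the start of Ndufa4l2 used in the lists ranked at 69.0, 82.9, 75.7 and 64.9. In introns of Itsn1, 55824 bp and 83815 bp from Atp5o, a pair of regions was also listed in all 4 muscles. Their order differed, as the nearer ranked at 84.0, 81.7, 51.0 and 14.96 and the farther at 61.8, 41.8, 80.3 and 68.1.

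Counting only peaks outside promoters, 52 of the 104 regions were listed in EDL or Quad or both but not in Sol or Dia. Another 21 were in Sol or Dia or both alone, 13 in all 4 and 18 in other mixtures. A promoter peak of another list over the same DNA was not counted. Such peaks overlapped regions near the starts of Ndufc2 (listed in Quad), Ndufs4 (in EDL) and Ndufa9 (in Sol). The class of EDL and Quad made up 50% of the members' regions and 44.2% of all regions outside promoters. That of Sol and Dia made up 20.2% and 17.3%, so by these classes the members were near all regions. The Quad list alone held 26 of the 104 (25%), and 26.7% of all regions outside promoters, and all 4 lists held 13 (12.5%) and 15.8%. The EDL list alone held 15 (14.4%), beside 8.02% of all. The strongest that both EDL and Quad held, without Sol or Dia, were a pair in the first intron of Tecr, 8126 bp and 9285 bp from Ndufb7, at percentiles 85.6 and 82.1 in Quad and 63.2 and 71.8 in EDL. In EDL alone, a region in the first exon of Ndufaf3, 306 bp from its start, ranked at percentile 87.2. The strongest in the class of Sol and Dia was 28207 bp from Ndufb3 on chromosome 1, at percentile 59.4 in Sol and 38.1 in Dia. The others of that class that both lists held, near Ndufv3 and Cycs, ranked at 23.4 and 9.81 in Sol. Cox5a had a region in its own first intron, 459 bp from its start, at percentiles 61.8, 64.0 and 73.7 in EDL, Quad and Sol.

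**Figure D4:**
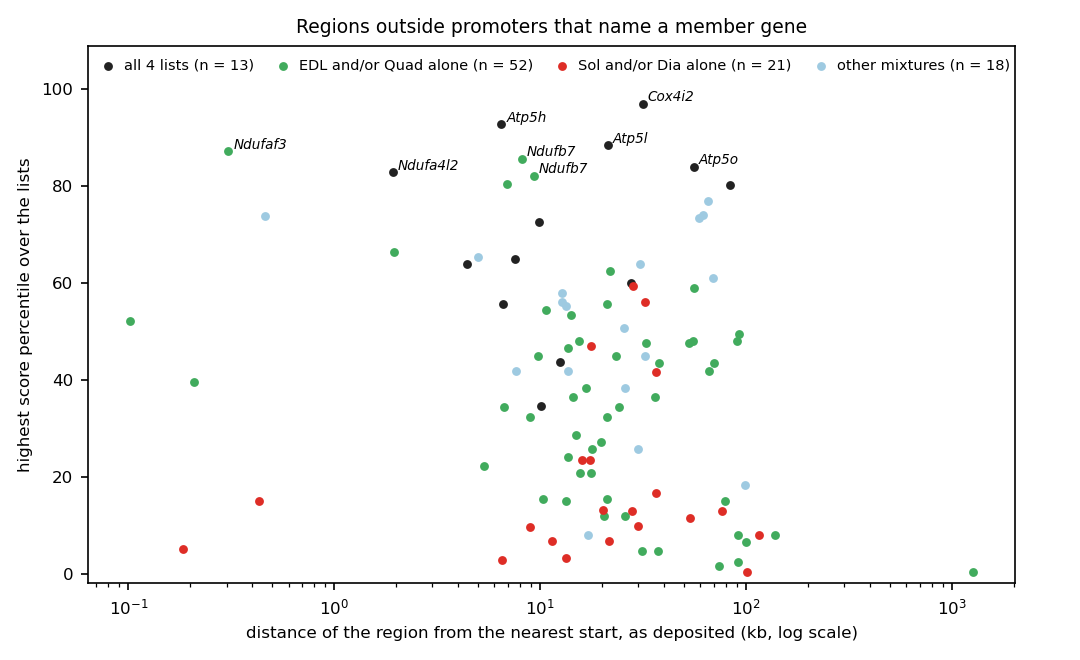
Highest score percentile over the lists against distance from the nearest start (kb, log scale) for the 104 regions outside promoters that name a member. Colours give the lists that held them as a peak outside promoters. The black points of all 4 lists fill much of the top, led by regions near Cox4i2 and Atp5h, and the red points of Sol and Dia alone stay below percentile 60.

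The promoter peaks of the members lay close to the start and shared some sequence features. They were centred within 100 bp of a TSS for 80%, 81.1%, 82.2% and 78.1% of peaks, and the shares over all promoter peaks were 67.9%, 68.1%, 67.8% and 68.9%. Merged over the lists, the members had 84 promoter regions of median length 275.5 bp (257 bp over all), of which 74 (88.1%) held a peak of all 4 lists, as did 62.2% of all 11741. The median GC content of the central 200 bp was 60.8% in the members and 64.0% in all.

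Letters of 10 motifs were searched on both strands of these regions. NRF1 (GCGCATGC) was found in 13 of the 84 (15.5%, interval 9.27% to 24.7%) and in 5.16% of all promoter regions. YY1 (AAGATGGC) was found in 13 (15.5%, 9.27% to 24.7%) and in 4.86%. The nuclear receptor monomer AAGGTCA was found in 10 (11.9%, 6.60% to 20.5%) and in 2.57%, and the longer ERR letters TCAAGGTCA, which contain it, in 2 (2.38%, 0.655% to 8.27%) and in 0.187%. CREB (TGACGTCA) stood at 7.14% and 3.48%, and ETS (CCGGAAG) at 22.6% and 18.2%. SP/KLF (GGGCGG) was found in 52.4% of the member regions and in 66.5% of all, NFY (CCAAT) in 35.7% and 37.4%, the E-box CAGCTG in 11.9% and 15.4%, and MEF2 in 1.19% and 1.26%. Of the members' shares, those of NRF1, YY1, the nuclear receptor monomer and ERR had intervals above the share of all regions. That of SP/KLF had one below it. The same held when both sets were limited to regions with a peak in all 4 lists, with narrower gaps for NRF1 and YY1. NRF1 then stood at 14.9% and 6.04%, and YY1 at 14.9% and 6.05%. ETS stood at 24.3% and 23.0%, and NFY at 35.1% and 45.3%.

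The NRF1 letters lay in promoter regions of each of the 5 complexes. They were in Sdhb of complex II, Uqcr11 and Uqcrc1 of complex III, Cox6a1 of complex IV, Atp5g2, Atp5k and Atp5l of complex V, and Ndufa6, Ndufa8, Ndufa11, Ndufa13, Ndufaf4 and Ndufaf5 of complex I and its assembly. The ERR letters lay 48 bp upstream of the nearest start in Atp5g3 and 40 bp downstream in Sdhd, the membrane anchor of complex II. Both read TGACCTTGA along the gene, as shown above. The single MEF2 match of the set was in the promoter region of Cox6a2, 44 bp upstream of the start.

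The YY1 letters mostly coincided with a start codon. Read along the gene's own strand, they were present for 13 of 13 members with the motif, and in 11 the ATG within the letters was the start codon of the member, as in the stretches of Ndufa3, Atp5j2, Ndufb8 and Ndufs7 above. The exceptions were Atp5j and Ndufaf8. Over all 585 genes named by a promoter region with the letters, 73.7% had them on the gene's strand and 38.8% at a start codon. The 11 genes were Atp5j2, Ndufa2, Ndufa3, Ndufa6, Ndufa9, Ndufb8, Ndufc1, Ndufs4, Ndufs6, Ndufs7 and Sdhc, of which all but Atp5j2 and Sdhc belong to complex I.

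**Figure D5:**
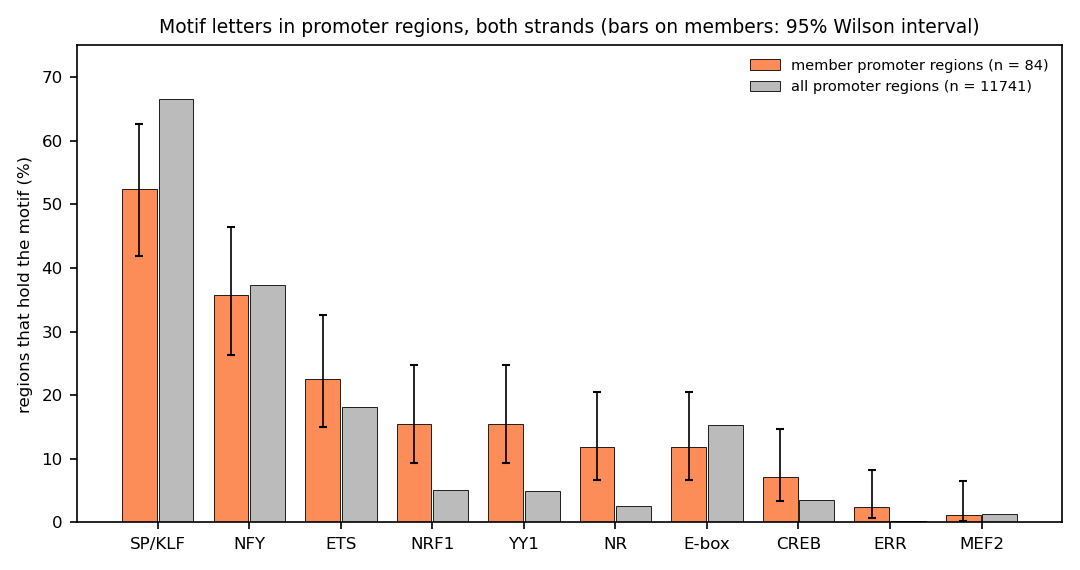
Share of promoter regions that hold the letters of each motif, in percent, for the 84 member regions (orange, with 95% Wilson intervals) and all 11741 promoter regions (grey). The orange bars of NRF1, YY1 and the nuclear receptor monomer (NR) stand at 15.5%, 15.5% and 11.9% over grey bars of 5.16%, 4.86% and 2.57%.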

How the data were processed

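ATAC-seq peaks were analysed for 1 pooled library from each of 4 muscles (quadriceps, soleus, EDL and diaphragm) of wild-type mice; the number of animals behind each pool was not given in the labels. The authors aligned reads to mm10 with Bowtie2, kept 1 tag per position and called peaks with HOMER, which also annotated each peak to its nearest start. The deposited peak scores are a signal, the tag height of a peak scaled to library size by the authors. A muscle with no listed peak is one where none was called. Reads were not used here.

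Peaks were selected by gene name as described in the report, and ranked within each list. Peaks over a start were those that overlapped 1 kb upstream to 100 bp downstream of a RefSeq start in GRCm38.p6, which has the coordinates of mm10; between 96.6% and 98.4% of member peaks had their stated start within 100 bp of one. Tag counts were inferred from the steps between low scores, which were whole multiples for 98.0% to 100% of scores under 10. Score ratios with counting intervals were centred on the median over all genes. Shares have 95% Wilson intervals, and intervals cover counting error only. With 1 library per muscle no test between muscles was run. Sequences were read from RefSeq tables of GRCm38.p6. The functions for tag inference, score ratios, counting intervals, peaks over starts and merged regions were tested on simulated data. The motif, neighbour and start codon searches had no such check.

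The members, gene lists and comparisons were chosen with earlier results of these data known. Genes were named if they belonged to an isoform set, had a promoter peak in some lists only (15 at most) or in none, were among the 5 highest or 5 lowest by mean percentile of those in all lists, passed 1.5-fold in a contrast, or held leading regions outside promoters. Cox5a, the motif-bearing genes, and Cox7b, Ndufa1, Ndufa9 and Ndufs4 were named in addition after their values were seen. Alternatives covered list length, promoter definition, gene assignment, member set, percentile base, distance, centring, peak pairing, motif window and region set. Python 3.11.15, NumPy 2.4.6, pandas 2.3.3, SciPy 1.17.1 and matplotlib 3.10.9 were used.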

Additional observations from a re-analysis of the deposited data

How the results depend on the processing

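No paired analysis was possible because each muscle had 1 library; for the same reason no replicate could be left out. Ranked among promoter peaks alone, the median percentile of the member genes was 59.9, 58.7, 56.6 and 51.1 in EDL, Quad, Sol and Dia. When each list was shortened to its 20000 peaks of highest score, the Quad median was 75.8, and 19 members in Quad and 18 in Sol had a peak outside promoters. Without centring, the median log2 ratio was −0.13 for Sol over Quad and −0.15 for Dia over Quad, and Atp5j2, Ndufa3 and Ndufb6 were no longer 1.5-fold higher in Sol than in Quad. In a window of 200 bp around the region centre, 5.95% of member regions held the E-box letters. The other 78 summary values and the 24 values of single genes were classed as unmoved under the alternatives run. Counts stayed within 1.5 times, and motif shares and single-gene ratios inside their counting intervals. Medians stayed inside a 95% interval taken over the member genes, which are not replicates, so it is not counting error. Among the 20000 highest peaks of each list Atp5j2, Ndufa10 and Ndufc2 had no ratio. Ndufb6 had none when a 50% reciprocal overlap was required. The lowest listed peak held 34, 25, 32 and 36 inferred tags in EDL, Quad, Sol and Dia, and the part of depth in what was listed was not tested.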
